A study of Mus musculus with 15 samples.

Results

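The lipogenic genes are 10 genes of fatty acid synthesis in the liver. They comprise the enzymes Acly, Acaca, Acacb, Fasn, Elovl6, Scd1 and Me1, the transcription factor genes Srebf1 and Mlxipl, and Thrsp. The list of members was chosen with earlier results of these data known. Every non-control probe carrying one of these gene names was taken, and the probe with the highest mean log2 signal stood for its gene. All 10 were among the 27553 genes tested. They had 18 probes, of which 16 were well above background on all 15 arrays; 5 members had 1 probe and 5 had several.

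Liver RNA of 15 C57BL/6J mouse pups was measured on postnatal day 1 (P1), with 1 one-colour Agilent array per pup. The 5 wild-type pups were littermates of 10 pups that lacked the maternally inherited copy of the miR-379/miR-410 microRNA cluster (KO). The study labels 3 KO pups normoglycaemic, although its design text calls their hypoglycaemia mild, and 7 KO pups hypoglycaemic, with severe hypoglycaemia. Blood glucose was 50 to 72 mg/dl in wild-type pups, 44 to 56 mg/dl in normoglycaemic KO pups and 9 to 33 mg/dl in hypoglycaemic KO pups. No wild-type pup was below 50 mg/dl, so genotype and severe hypoglycaemia cannot be told apart where hypoglycaemic KO pups are set against wild type. In RNA of whole liver, fewer cells of a type and less RNA per cell cannot be told apart. A level below is log2 of a probe's signal over the 75th percentile of its array, and a difference is one of group mean levels.

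Hepatic lipogenesis turns carbohydrate into fatty acids. Citrate leaving the mitochondria is split by ATP citrate lyase (Acly) into acetyl-CoA, which the acetyl-CoA carboxylases carboxylate to malonyl-CoA. Fatty acid synthase (Fasn) builds palmitate from these with NADPH, part of which comes from malic enzyme (Me1), and Elovl6 and Scd1 elongate and desaturate the product. SREBP1, encoded by Srebf1, responds to insulin, and ChREBP, encoded by Mlxipl, responds to glucose metabolites. Acacb differs from its relative Acaca in that its product sits at the mitochondrial outer membrane, where malonyl-CoA restrains fatty acid oxidation.

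Several facts of the arrays bear on these genes. Between 57.9% and 76.2% of non-control spots were well above background on an array, and levels of any pair of arrays correlated at 0.97 to 0.99. The hepatocyte markers averaged 7.86 to 8.24 in every library, with all 7 of them well above background on all arrays. Single markers moved in opposite directions within this average. Cps1 averaged 5.15 in wild-type, 4.41 in normoglycaemic KO and 5.90 in hypoglycaemic KO pups, and Ttr 8.02, 8.13 and 7.40. The adipocyte markers averaged between -3.31 and -2.39, with 3 of 7 well above background on all arrays. The exocrine pancreas markers stood apart: their mean level was 1.22 in wild-type replicate 2, 4.21 in normoglycaemic KO replicate 2 and 1.24 in hypoglycaemic KO replicate 3, against -0.80 or less in the other 12 libraries. Mirg, a transcript of the deleted cluster's locus, lay between 0.88 and 1.60 in wild-type pups and between -3.02 and -1.23 in 9 KO pups, whereas it was 0.66 in the library labelled hypoglycaemic KO replicate 2, against that label. Sex was not labelled; the Y-linked Ddx3y was high in 5 pups, of which 1 was wild type and 2 came from each KO group. Both slides held all 3 groups.

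The members divided in their relation to blood glucose. Over all 15 pups, the levels of Acaca, Acly, Srebf1 and Mlxipl were higher at higher blood glucose and Acacb was lower. Their Pearson correlations of 0.78, 0.68, 0.78, 0.72 and -0.81 passed the test over all genes. The Mlxipl value is that of the brighter of its 2 probes, and the dimmer probe ran the other way within groups. The other 5 members, Fasn, Elovl6, Scd1, Me1 and Thrsp, did not pass it. No member passed the limma test in any of the 3 comparisons of group means. The largest group difference was that of Acacb, whose mean in hypoglycaemic KO pups was 2.52-fold that of wild-type and 3.17-fold that of normoglycaemic KO pups, with adjusted p = 0.120 and 0.105 (limma).

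**Figure D1:**
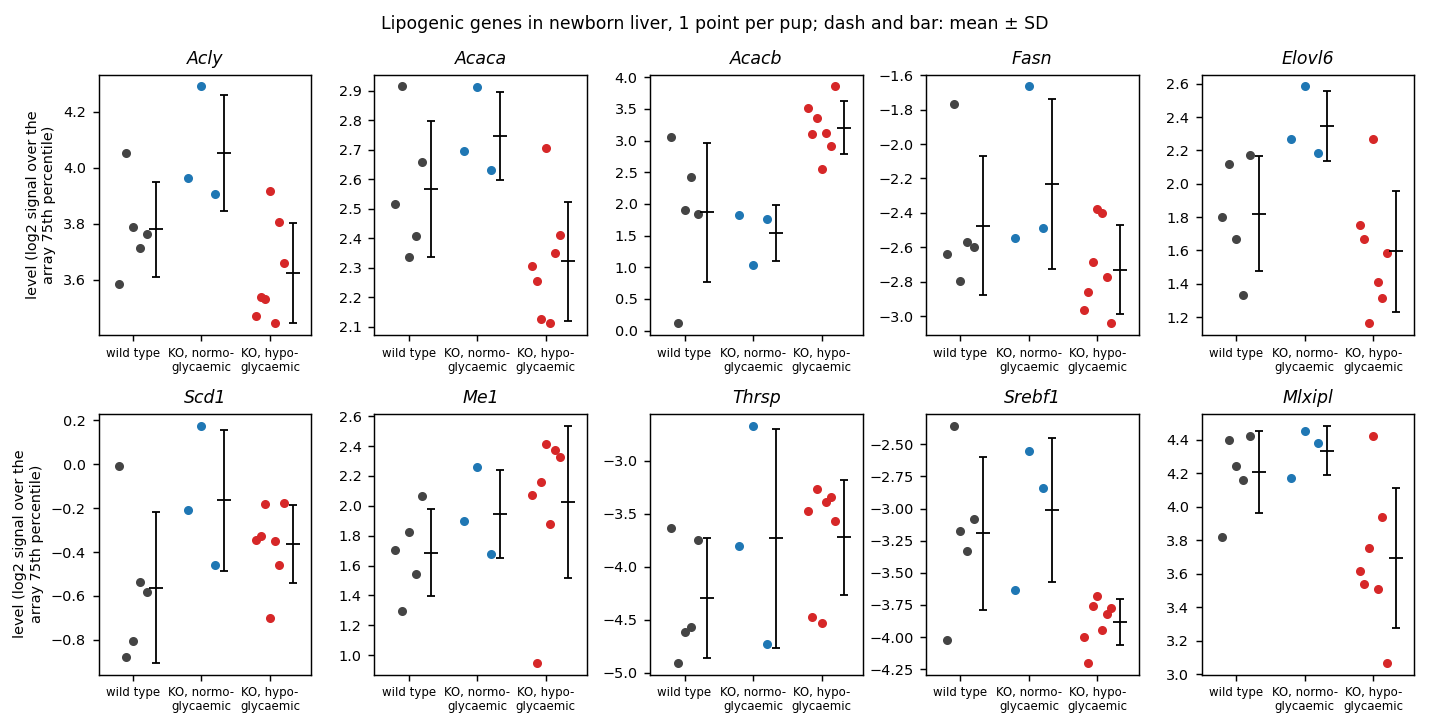
Level (log2 signal over the array's 75th percentile) of the 10 members in each pup by group, with the mean and SD of each group beside its points (5 wild-type, 3 normoglycaemic KO, 7 hypoglycaemic KO); axes differ between panels and do not start at 0. All 7 hypoglycaemic KO pups lie above the 3 normoglycaemic KO pups for Acacb and below them for Srebf1; in the other panels these groups overlap.

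The upstream sequences of 4 members are shown as examples of how members differ in the letters searched: an enzyme and a regulator with a positive correlation with glucose (Acly, Mlxipl), Acacb, with a negative one, and Thrsp, which did not pass that test. RefSeq's table (GRCm38.p6) held 13 promoters of 9 members, and Scd1 was not among them. Each line is the 250 bases before an annotated start, written 5′ to 3′ on the gene's strand. Capitals mark every match, on either strand, to CACGTG (the E-box core), TCACNCCAC (a sterol element), CCAAT or GGGCGG (a GC box). The Acacb window precedes a start inside the gene, and the other windows shown precede the outermost start.
Acly (chr11:100528001-100528250, minus strand): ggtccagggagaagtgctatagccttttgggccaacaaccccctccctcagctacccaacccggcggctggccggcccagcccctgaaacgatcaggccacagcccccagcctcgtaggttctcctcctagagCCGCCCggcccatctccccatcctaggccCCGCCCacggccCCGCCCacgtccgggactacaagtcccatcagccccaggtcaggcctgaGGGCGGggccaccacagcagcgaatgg
Mlxipl (chr5:135089640-135089889, plus strand): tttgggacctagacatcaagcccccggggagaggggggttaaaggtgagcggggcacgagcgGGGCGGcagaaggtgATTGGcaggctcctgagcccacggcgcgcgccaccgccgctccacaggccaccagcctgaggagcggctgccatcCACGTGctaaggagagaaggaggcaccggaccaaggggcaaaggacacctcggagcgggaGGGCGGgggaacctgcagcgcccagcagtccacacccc
Acacb (chr5:114165268-114165517, plus strand): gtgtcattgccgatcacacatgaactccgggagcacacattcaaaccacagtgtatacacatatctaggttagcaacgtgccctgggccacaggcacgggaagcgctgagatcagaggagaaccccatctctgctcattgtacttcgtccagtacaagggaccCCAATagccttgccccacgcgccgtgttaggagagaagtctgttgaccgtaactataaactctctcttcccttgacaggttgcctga
Thrsp (chr7:97417551-97417800, minus strand): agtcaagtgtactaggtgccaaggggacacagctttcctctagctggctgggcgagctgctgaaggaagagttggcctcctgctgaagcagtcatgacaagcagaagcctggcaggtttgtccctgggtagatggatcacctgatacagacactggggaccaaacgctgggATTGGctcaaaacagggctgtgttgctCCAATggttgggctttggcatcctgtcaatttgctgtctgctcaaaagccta

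Among the 13 member promoters, CACGTG stood in 1, that of Mlxipl above, 92 bases before its start, against 6.02% of 32851 promoters searched. TCACNCCAC stood in 1, at an inner start of Mlxipl, against 1.05%. CCAAT stood in 7 against 33.8%, with 3 matches at Fasn, of which 2 overlap on opposite strands. GGGCGG stood in 5 against 32.7%, with 4 matches at Acly. Some matches adjoin or overlap, and each match describes letters only.

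Srebf1 encodes SREBP1, the insulin-responsive activator of lipogenic genes. Its only probe lies at chr11:60012664-60012723 (mm9, minus strand). The probe was dim, with a mean level of -3.48, though well above background on all 15 arrays. Its level was -4.02, -2.35, -3.17, -3.33 and -3.08 in the wild-type pups and -3.64, -2.55 and -2.84 in the normoglycaemic KO pups. The lowest, median and highest of the hypoglycaemic KO pups were -4.20, -3.82 and -3.68. All 7 hypoglycaemic KO pups were thus below all 3 normoglycaemic KO pups, and 1 wild-type pup, replicate 1, lay within their range. The difference of hypoglycaemic KO pups from wild type was -0.69 (SE 0.24, adjusted p = 0.156, limma). Against normoglycaemic KO pups the difference was -0.87 (SE 0.28, adjusted p = 0.132, limma). Without wild-type replicate 1 the difference from wild type was -0.90 with adjusted p = 0.0459 (limma), and 2.72% of all genes passed in that fit. Without wild-type replicate 2 it was -0.48 with adjusted p = 0.346 (limma). With normexp correction the difference from wild type was -0.35, and the cause of that shift was not tested.

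Mlxipl encodes ChREBP, the glucose-responsive activator of glycolytic and lipogenic genes, and its 2 probes disagreed. The brighter probe, at chr5:135613705-135613764 (mm9, plus strand), gave 3.82, 4.40, 4.24, 4.16 and 4.42 in wild-type pups and 4.17, 4.45 and 4.38 in normoglycaemic KO pups. It ran from 3.07 over a median of 3.62 to 4.42 in hypoglycaemic KO pups. Of these 7 pups, 5 were below every wild-type pup, and replicate 4, with 33 mg/dl the highest glucose of the group, was level with the highest wild-type pup. The difference from wild type was -0.52 (SE 0.19, adjusted p = 0.167, limma) and that from normoglycaemic KO pups -0.64 (SE 0.22, adjusted p = 0.147, limma). Without hypoglycaemic KO replicate 4 these became -0.64 and -0.76, with adjusted p = 0.0499 and 0.0383 (limma), where 1.99% and 3.44% of all genes passed. Over all single libraries left out they were at the smallest -0.41 and -0.54, with adjusted p up to 0.346 and 0.463 (limma). The dimmer probe, at chr5:135614195-135614252, differed by 0.10 from wild type and by 0.30 from normoglycaemic KO pups, the opposite direction. Its unadjusted p was 0.278 and 0.0109, against 0.0160 and 0.0117 for the brighter probe (limma over all probes). Its level correlated at -0.72 with that of the brighter probe over the 15 libraries. The mean of both probes differed from wild type by -0.21. A statement on Mlxipl therefore holds for the brighter probe only.

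**Figure D2:**
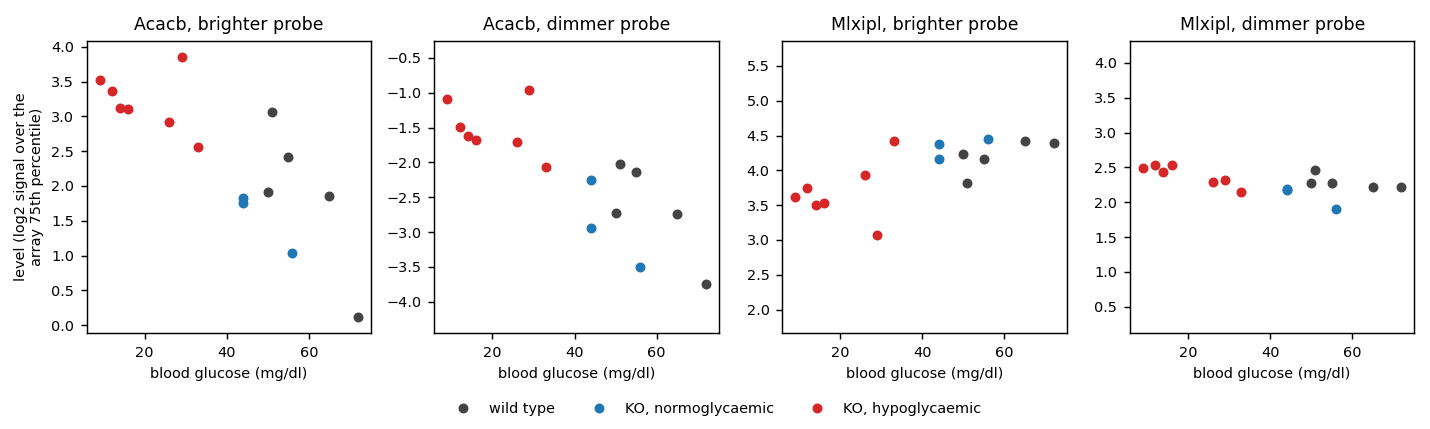
Level of both Acacb probes and both Mlxipl probes (log2 signal over the array's 75th percentile) against blood glucose in mg/dl, 1 point per pup, each panel spanning the same height. The Acacb probes run in parallel, whereas the dimmer Mlxipl probe runs against the brighter one, with a correlation of -0.72 between them.

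Acly makes cytosolic acetyl-CoA from citrate. Its level was 3.59, 4.05, 3.79, 3.71 and 3.76 in wild-type pups and 3.96, 4.29 and 3.91 in normoglycaemic KO pups, at the probe chr11:100337674-100337733 (mm9, minus strand). The hypoglycaemic KO pups had 3.45 at the lowest, 3.54 at the median and 3.92 at the highest. Of the 7 hypoglycaemic KO pups, 4 were below every wild-type pup and 6 were below every normoglycaemic KO pup. The difference from wild type was -0.16 (SE 0.11, adjusted p = 0.463, limma), and that from normoglycaemic KO pups was -0.43 (SE 0.13, adjusted p = 0.118, limma). Without hypoglycaemic KO replicate 4 the latter was -0.48 with adjusted p = 0.0494 (limma), and over all single libraries left out it was -0.50 to -0.31 with adjusted p up to 0.461 (limma). A dimmer second probe, with a mean level of -2.92, correlated at 0.40 with the first. It differed by 0.08 from wild type and by -0.23 from normoglycaemic KO pups. The latter had unadjusted p = 0.475, against 0.00518 for the first probe (limma over all probes).

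Acaca encodes the cytosolic carboxylase that supplies malonyl-CoA to fatty acid synthase. Its level was 2.52, 2.91, 2.34, 2.41 and 2.66 in wild-type pups and 2.69, 2.91 and 2.63 in normoglycaemic KO pups, at the probe chr11:84215093-84215152 (mm9, plus strand). Among hypoglycaemic KO pups it spanned 2.11 to 2.71 with a median of 2.30. Of these, 6 were below every normoglycaemic KO pup and 4 below every wild-type pup. The difference from wild type was -0.24 (SE 0.12, adjusted p = 0.292, limma), and that from normoglycaemic KO pups -0.42 (SE 0.14, adjusted p = 0.139, limma). All 4 Acaca probes lay on the same side, with differences from wild type of -0.24 to -0.38. However, the standing probe and that at chr11:84215094-84215153 overlap almost wholly, and the others were dim, with mean levels of -3.17 and -4.94. The dimmest was well above background on 10 of 15 arrays.

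Acacb encodes the mitochondrial carboxylase whose malonyl-CoA restrains fatty acid oxidation, and it ran opposite to Acaca. Its level was 3.06, 0.11, 1.91, 2.42 and 1.85 in wild-type pups and 1.83, 1.04 and 1.76 in normoglycaemic KO pups, at the probe chr5:114700702-114700761 (mm9, plus strand). In hypoglycaemic KO pups it was 2.56 at the lowest, 3.11 at the median and 3.86 at the highest. Every hypoglycaemic KO pup was thus above every normoglycaemic KO pup, and wild-type replicate 1, with 51 mg/dl, was the only wild-type pup within their range. The difference from wild type was 1.33 (SE 0.40, 95% interval 0.48 to 2.18, adjusted p = 0.120, limma). That from normoglycaemic KO pups was 1.66 (SE 0.47, 95% interval 0.66 to 2.67, adjusted p = 0.105, limma). Without wild-type replicate 1 the difference from wild type was 1.63 with adjusted p = 0.0437 (limma), and without wild-type replicate 2 it was 0.89 with adjusted p = 0.237 (limma). Wild-type replicate 2 had the lowest Acacb and the highest glucose. Leaving it out kept the difference between the KO groups at 1.66, with adjusted p = 0.0416 (limma), where 1.09% of all genes passed. Over all single libraries left out, that difference was 1.41 to 1.81, with adjusted p up to 0.437 (limma). The second probe, at chr5:114699684-114699743, differed by 1.16 from wild type and by 1.39 from normoglycaemic KO pups and correlated at 0.97 with the first. Without the 3 libraries highest in pancreas markers the difference from wild type was 0.87 and that between the KO groups 1.39; the part of the pancreas RNA was not tested.

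Fasn, the synthase that builds palmitate, differed by less than its spread allowed to call. Its level was -2.64, -1.77, -2.80, -2.57 and -2.60 in wild-type pups and -2.54, -1.66 and -2.49 in normoglycaemic KO pups, at the probe chr11:120667666-120667725 (mm9, minus strand). This only probe of Fasn was dim, with a mean level of -2.55, though well above background on all 15 arrays. Hypoglycaemic KO pups ran from -3.04 over a median of -2.77 to -2.38. The highest wild-type and the highest normoglycaemic KO pup were both the replicate 2 of their group, which also had the highest pancreas markers of their groups. The difference of hypoglycaemic KO pups was -0.26 from wild type (SE 0.20, adjusted p = 0.521, limma) and -0.50 from normoglycaemic KO pups (SE 0.24, adjusted p = 0.269, limma). Without the 3 libraries highest in pancreas markers these were -0.09 and -0.22, and the part of the pancreas RNA was not tested.

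Elovl6 lengthens palmitate, and it set the 2 KO groups apart more than it set either from wild type. Its level was 1.80, 2.12, 1.67, 1.33 and 2.17 in wild-type pups and 2.27, 2.58 and 2.19 in normoglycaemic KO pups, at the probe chr3:129341248-129341307 (mm9, plus strand). In hypoglycaemic KO pups it was 1.16 at the lowest, 1.59 at the median and 2.27 at the highest. The 3 normoglycaemic KO pups were above all 5 wild-type pups, an order that 2.35% of all genes had, and 6 of the 7 hypoglycaemic KO pups were below all 3 of them. The difference between the KO groups was -0.75 (SE 0.22, adjusted p = 0.115, limma). It was -0.86 with adjusted p = 0.0326 (limma) without hypoglycaemic KO replicate 4, and -0.86 to -0.63 with adjusted p up to 0.438 (limma) over all single libraries left out. Normoglycaemic KO pups were above wild-type pups by 0.53 (SE 0.23, adjusted p = 0.965, limma), and hypoglycaemic KO pups differed from wild type by -0.22 (SE 0.19, adjusted p = 0.546, limma).

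Scd1, the desaturase that makes oleate, Me1, which supplies NADPH, and Thrsp, a nuclear protein that promotes lipogenesis, had no group difference with an unadjusted p under 0.05 (limma). Scd1 levels spanned -0.88 to -0.01 (wild type), -0.46 to 0.18 (normoglycaemic KO) and -0.70 to -0.18 (hypoglycaemic KO). Me1 was 1.29 to 2.06, 1.68 to 2.26 and 0.95 to 2.42 in the same groups. Thrsp was -4.90 to -3.63, -4.72 to -2.67 and -4.53 to -3.27, and its probe was well above background on 14 of 15 arrays. The 3 groups overlapped in each of these genes. Of the 7 hypoglycaemic KO pups, 5 were above every wild-type pup and 1 was below every one for Me1. For Thrsp 5 were above every wild-type pup, and for Scd1 0 were. Hypoglycaemic KO pups differed from wild type by 0.20 for Scd1 (95% interval -0.13 to 0.53), 0.34 for Me1 (-0.16 to 0.84) and 0.57 for Thrsp (-0.20 to 1.35), so that these intervals leave room for differences either way. Without hypoglycaemic KO replicate 2, which had the lowest Me1 and whose Mirg goes against its label, the Me1 difference was 0.52 (adjusted p = 0.112, limma). The 3 Me1 probes were alike, with differences from wild type of 0.25 to 0.39.

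Counted together, 0 of the 10 members passed limma's test at an adjusted p under 0.05 in hypoglycaemic KO against wild-type pups, where 0.0181% of all genes did. At an unadjusted p under 0.05, 1 member was higher (Acacb) and 2 were lower (Srebf1, and Mlxipl by its brighter probe), against 9.69% and 8.97% of all genes. The median difference of the members was -0.19, and that of all genes 0.02. In normoglycaemic KO against wild-type pups, 0 of 10 passed, against 0.0% of all genes, and only Elovl6 had an unadjusted p under 0.05, where 4.79% of all genes had one. In that comparison 9 of the 10 differences were above 0, all but Acacb, against 52.8% of all genes. The members' median was 0.25 against 0.01 for all genes, and it was 0.08 without normoglycaemic KO replicate 2. Between the KO groups 0 of 10 passed, against 0.0544% of all genes. There, 1 member was higher in hypoglycaemic KO pups at an unadjusted p under 0.05 (Acacb), against 9.36% of all genes. Lower were 5 (Acaca, Acly, Elovl6, Srebf1, and Mlxipl by its brighter probe), against 9.97% of all genes. The members' median was -0.43, that of all genes -0.01. All hypoglycaemic KO pups were above all normoglycaemic KO pups in 5.07% of all genes, as for Acacb, and below them in 3.96%, as for Srebf1. The 3 comparisons share groups with each other and are not independent.

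**Figure D3:**
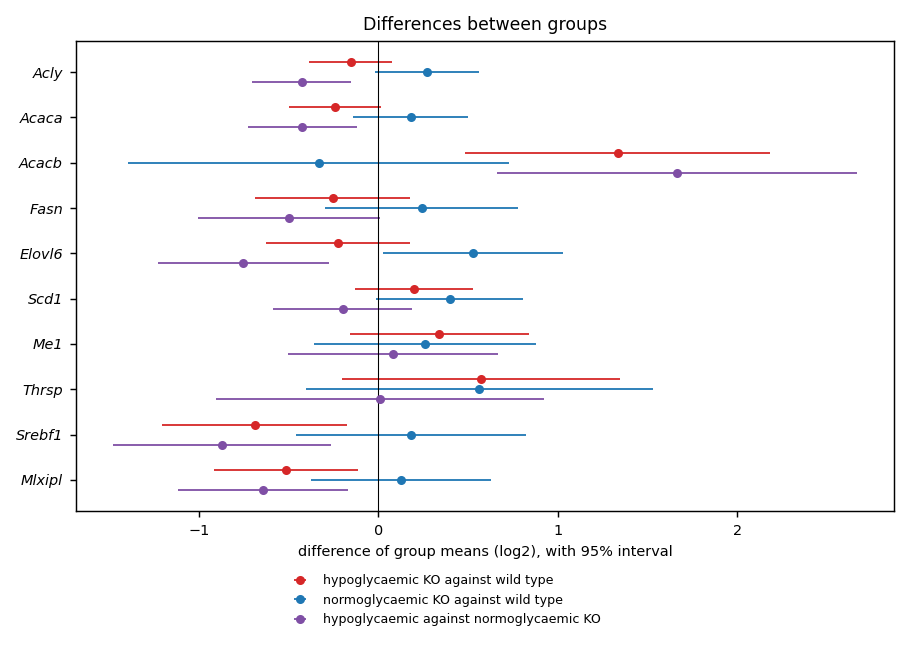
Difference of group means (log2) with its 95% interval from limma for the 10 members in the 3 comparisons. The intervals of Acacb lie above 0 and those of Srebf1 and Mlxipl (brighter probe) below 0 in both comparisons of hypoglycaemic KO pups. None of these passed the adjustment over all genes.

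The levels were then set against blood glucose. Over all 15 pups 5 of 10 members passed a permutation test of Pearson's r at an adjusted p under 0.05, 4 positive and 1 negative, where 18.2% of 26561 genes passed, 2188 of them positive and 2659 negative. By Spearman's rho 4 of 10 passed, against 12.3% of all genes. Acacb had r = -0.81 (permutation p = 0.00023, adjusted 0.00838) with Spearman's rho of -0.80 (adjusted permutation p = 0.0181). Srebf1 had r = 0.78 (permutation p = 0.0007, adjusted 0.0125) with rho of 0.73 (adjusted permutation p = 0.0312). Acaca had r = 0.78 (permutation p = 0.00095, adjusted 0.0145) with rho of 0.76 (adjusted permutation p = 0.0257). The brighter Mlxipl probe had r = 0.72 (permutation p = 0.00307, adjusted 0.0265) with rho of 0.74 (adjusted permutation p = 0.0301). Acly had r = 0.68 (permutation p = 0.00601, adjusted 0.0388), but its rho of 0.67 did not pass (adjusted permutation p = 0.0581).

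The remaining members did not pass: Fasn had r = 0.57 (rho 0.52, adjusted permutation p = 0.0924 for r) and Elovl6 r = 0.55 (rho 0.51, adjusted permutation p = 0.119). Thrsp had r = -0.34 (rho -0.45), Scd1 r = -0.27 (rho -0.30) and Me1 r = -0.20 (rho -0.30), with adjusted permutation p = 0.409, 0.535 and 0.678. Since blood glucose also separates the groups, these correlations include the group differences.

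The relation was as strong with fewer pups in some members and not in others. Without the 2 pups farthest from the median glucose, r was -0.77 for Acacb, 0.78 for Srebf1, 0.73 for Acaca, 0.70 for Mlxipl and 0.57 for Acly, and Acacb and Srebf1 alone of the members passed, where 5.03% of all genes did. Within slide 1 and slide 2, r was 0.89 and 0.74 for Acaca, -0.87 and -0.74 for Acacb, 0.77 and 0.82 for Srebf1, 0.75 and 0.75 for Mlxipl, and 0.76 and 0.57 for Acly, each of the sign it had over all pups. Fasn had 0.83 on slide 1 and 0.06 on slide 2. Without the 3 libraries highest in pancreas markers, which include the pup with the highest glucose, r was -0.71 for Acacb, 0.71 for Srebf1, 0.66 for Mlxipl, 0.63 for Acaca, 0.55 for Acly and 0.32 for Fasn, and 0 of 10 members passed, against 0.709% of all genes. The part of the pancreas RNA was not tested. When hypoglycaemic KO replicate 2 was left out, the library with Mirg against its label, 4 of 10 passed, Acly not among them, against 16.8% of all genes. Acly also missed the threshold without replicate 3 or 7 of that group. Without wild-type replicate 2, or without hypoglycaemic KO replicate 1 or 5, 3 passed: Acaca, Acacb and Srebf1. All genes passing numbered 2400 to 2956 in those fits.

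**Figure D4:**
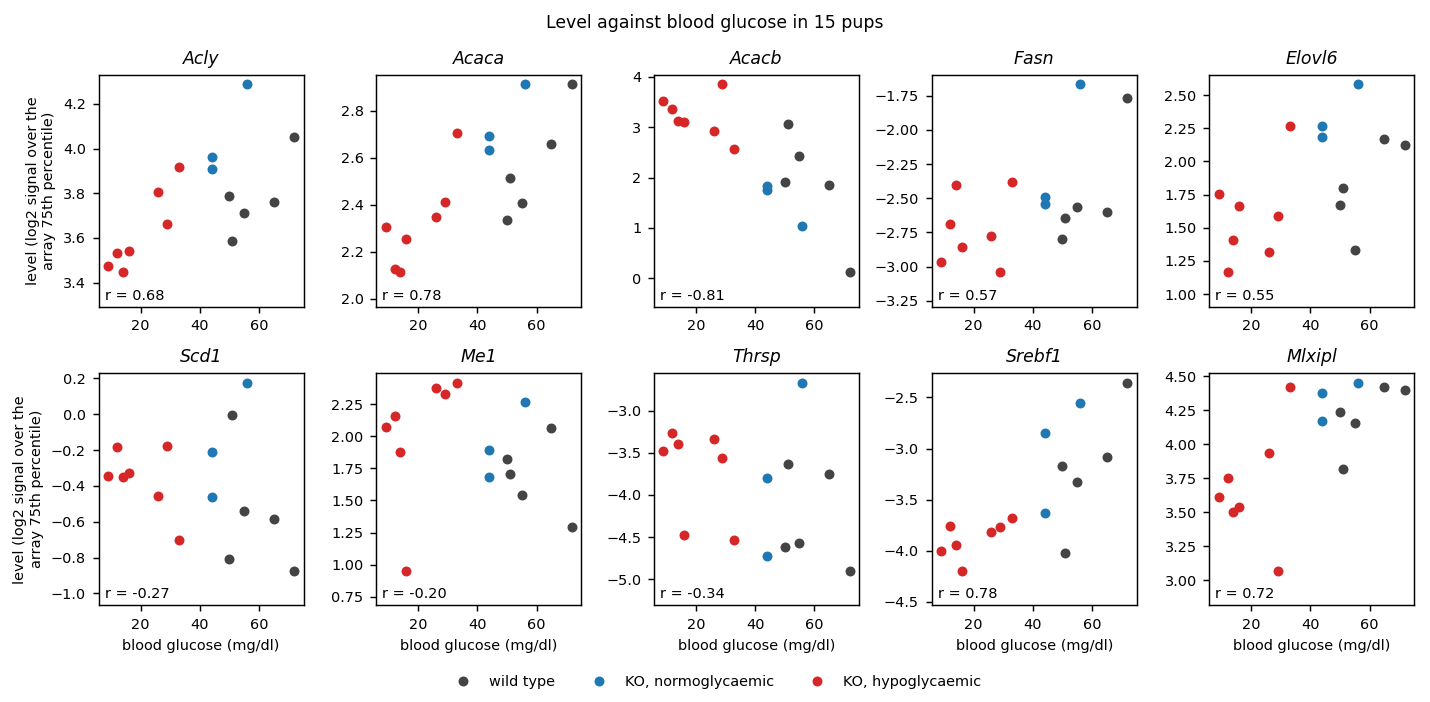
Level of the 10 members (log2 signal over the array's 75th percentile) against blood glucose in mg/dl, 1 point per pup, coloured by group, with Pearson's r over the 15 pups. Acaca, Acly, Srebf1 and Mlxipl (brighter probe) rise from left to right and Acacb falls. Scd1, Me1 and Thrsp show no ordering that passed the test.

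Within groups, with the group means taken out, the slope of level on blood glucose was fitted for every gene with limma. Per 10 mg/dl, Acaca was higher by 0.20 (SE 0.04) and Acly by 0.17 (SE 0.04), the most precise slopes of the 10. Their adjusted p of 0.0570 and 0.0607 (limma) missed the threshold, as did every gene's: 0 of 10 members and 0.0% of all genes passed, and the smallest adjusted p of any gene was 0.0541. At an unadjusted p under 0.05, 5 members had a positive slope (Acaca, Acly, Srebf1, Elovl6, Fasn) and 1 a negative slope (Acacb), against 8.11% and 9.97% of all genes. The slope was 0.30 for Srebf1 (SE 0.11), -0.50 for Acacb (SE 0.18), 0.22 for Elovl6 (SE 0.09) and 0.23 for Fasn (SE 0.09). The brighter Mlxipl probe had 0.16 and the dimmer -0.12, with unadjusted p = 0.121 and 0.0034 (limma over all probes). The dimmer Acly probe had a slope of 0.12, with unadjusted p = 0.420 (limma over all probes). The median slope of the members was 0.17 and that of all genes -0.02. Without the 3 libraries highest in pancreas markers, Acaca kept a slope of 0.17 and Acly of 0.15, while Acacb had -0.21 and Fasn 0.07. Without hypoglycaemic KO replicate 7, whose Acacb was the highest and whose Mlxipl was the lowest of its group, 4 members passed: Acaca, Acacb, Acly and Mlxipl, with adjusted p = 0.0241, 0.0411, 0.0255 and 0.0437 (limma), where 3.56% of all genes passed. Without hypoglycaemic KO replicate 1, Acaca alone of the members passed, with adjusted p = 0.0441 (limma), among 0.171% of all genes. Without hypoglycaemic KO replicate 4 the adjusted p was 0.213 for Acaca and 0.214 for Acly (limma).

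Among the 7 hypoglycaemic KO pups alone, 0 of 10 members passed an exact permutation test after adjustment, against 0.0% of 27023 genes. Acly had r = 0.90 (exact permutation p = 0.00675, adjusted 0.383; rho 0.86) and r = 0.92 without the 2 pups farthest from the group's median glucose. Acaca had r = 0.82 (exact permutation p = 0.0129, adjusted 0.383; rho 0.75), which was 0.48 without those 2 pups and so rests on them. At an unadjusted p under 0.05 these were 2 of 10 members, against 12.4% of all genes. Acly was thus 3.45 to 3.54 in the 4 pups with 9 to 16 mg/dl and 3.66 to 3.92 in the 3 pups with 26 to 33 mg/dl. The other members had smaller r in these pups: Srebf1 0.59, Scd1 -0.51, Elovl6 0.47, Me1 0.47, Thrsp -0.40, Acacb -0.34, Mlxipl 0.32 and Fasn 0.16. Their unadjusted exact permutation p ran from 0.160 to 0.714.

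The members fell into sets by how their levels ran together over the 15 libraries, which share groups and glucose differences. Acaca correlated at 0.88 with both Acly and Elovl6, and Srebf1 at 0.79 with Acly. Acacb ran opposite to Srebf1 (-0.90), Mlxipl (-0.83), Acly (-0.82), Fasn (-0.81) and Acaca (-0.80). With group means taken out, Acacb and Srebf1 still had -0.79 and Acaca and Acly 0.81. Scd1 and Thrsp correlated at 0.77, or 0.76 with group means taken out, and Me1 and Thrsp at 0.61. With the other 7 members these 3 genes had correlations of at most 0.38 in size over all libraries, that of Scd1 and Mlxipl being -0.38. With group means taken out, Scd1 had -0.59 with Mlxipl, 0.59 with Acacb and -0.46 with Srebf1.

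Among 13742 named genes well above background on all arrays, the level most like that of each member over the 15 libraries was Ttc30a1 for Acly (0.96), Katnbl1 for Acaca (0.96), Osbpl1a for Acacb (0.97) and Pkn3 for Fasn (0.92). It was Mras for Elovl6 (0.89), Rps6kb1 for Scd1 (0.81), Cacul1 for Me1 (0.86), Ascl2 for Thrsp (0.85), Gclm for Srebf1 (0.93) and Dsp for Mlxipl (0.95). Bhlha15 was also among the 3 genes most like Fasn (0.90); it encodes a transcription factor of exocrine pancreas acinar cells and was named after its value was seen.

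Around the members, 60 genes of 7 lists describe the supply, use and control of the pathway, of which 59 were tested and Elovl3, which was not well above background on enough arrays, was not. None passed the limma test in a comparison of group means or in the slope within groups. At an unadjusted p under 0.05 in hypoglycaemic KO against wild-type pups, 11 of the 59 were higher and 8 lower. Of all genes, 9.69% were higher and 8.97% lower at that threshold. The correlation with blood glucose passed for 10 positive and 11 negative genes of 58 (permutation test, adjusted over all genes), where 18.2% of all genes passed. Rgs16 lacked a value on 1 or more arrays.

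Of carbon supply, 2 of 7 genes passed, both positive: Gckr, the glucokinase regulator (r = 0.84), and Pklr, the liver pyruvate kinase and a known ChREBP target (0.74). All 7 had a positive r and a negative difference between hypoglycaemic KO and wild-type pups, from -1.03 for Gckr to -0.06 for Acss2. Of all genes, 52.7% had a difference above 0 in that comparison. Of NADPH supply, 1 of 6 passed, Idh1 (0.83). Of activation, elongation and desaturation, 3 of 10 passed, all positive: the polyunsaturated fatty acid desaturases Fads1 (0.80) and Fads2 (0.83), and Acsl3 (0.71), which activates fatty acids. The difference of hypoglycaemic KO pups from wild type was -1.37 for Fads2 (adjusted p = 0.0887, limma).

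Of triglyceride synthesis, 4 of 9 genes passed, all with a negative r. These were Gpam, the first acyltransferase (r = -0.91), the phosphatidate phosphatases Lpin2 (-0.87) and Lpin1 (-0.75), and Dgat1, which makes the final triglyceride (-0.76). The 3 genes with a positive r, Agpat2 (0.54), Dgat2 (0.54) and Pnpla3 (0.33), did not pass. Gpam was above wild type by 0.82 in hypoglycaemic KO pups (adjusted p = 0.0591, limma) and Lpin2 by 1.01 (adjusted p = 0.0916, limma). Lpin2 was also above normoglycaemic KO pups, by 1.40 (adjusted p = 0.0728, limma), and its slope within groups was -0.40 per 10 mg/dl (adjusted p = 0.0607, limma).

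Of the genes that control SREBP1, 4 of 12 passed with a negative r: Insig2, which retains SREBPs in the endoplasmic reticulum (-0.81), the protease gene Mbtps2 (-0.80), Ppargc1b (-0.85) and Rxra (-0.71). Pparg (0.66) passed with a positive r. Of the partners and targets of ChREBP and Thrsp, Txnip (-0.83) and Mlxip (-0.74) passed with a negative r and Mid1ip1 (0.71) and Thrb (0.67) with a positive one, of 6 with a value. Txnip, a known ChREBP target, averaged 3.88 ± 0.59 in wild-type (SD, n = 5), 3.52 ± 0.39 in normoglycaemic KO (n = 3) and 5.38 ± 0.54 in hypoglycaemic KO pups (n = 7). Hypoglycaemic KO pups differed from wild type with adjusted p = 0.0724 (limma) and from normoglycaemic KO pups by 1.86 (adjusted p = 0.0648, limma), while Pklr, another such target, differed by -0.64 and -1.23. Thrb, a thyroid hormone receptor, differed by -0.59 from wild type (adjusted p = 0.0844, limma).

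Of the genes that control malonyl-CoA, Mlycd, the decarboxylase that removes it, had r = -0.79, and Prkag2, a subunit of AMP-activated kinase, had 0.75; the other 6 of that list did not pass. Mlycd had a slope within groups of -0.24 per 10 mg/dl (adjusted p = 0.0557, limma), and Pklr one of 0.57 (adjusted p = 0.0564, limma). In normoglycaemic KO against wild-type pups the genes with the smallest unadjusted p were Pnpla3 at 0.94, Slc25a1, the citrate carrier, at 0.40 and Prkab1 at 0.36, each with adjusted p = 0.965 (limma). Between the KO groups Gpam differed by 0.64 and Idh1 by -1.25, both with adjusted p = 0.0956 (limma).

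**Figure D5:**
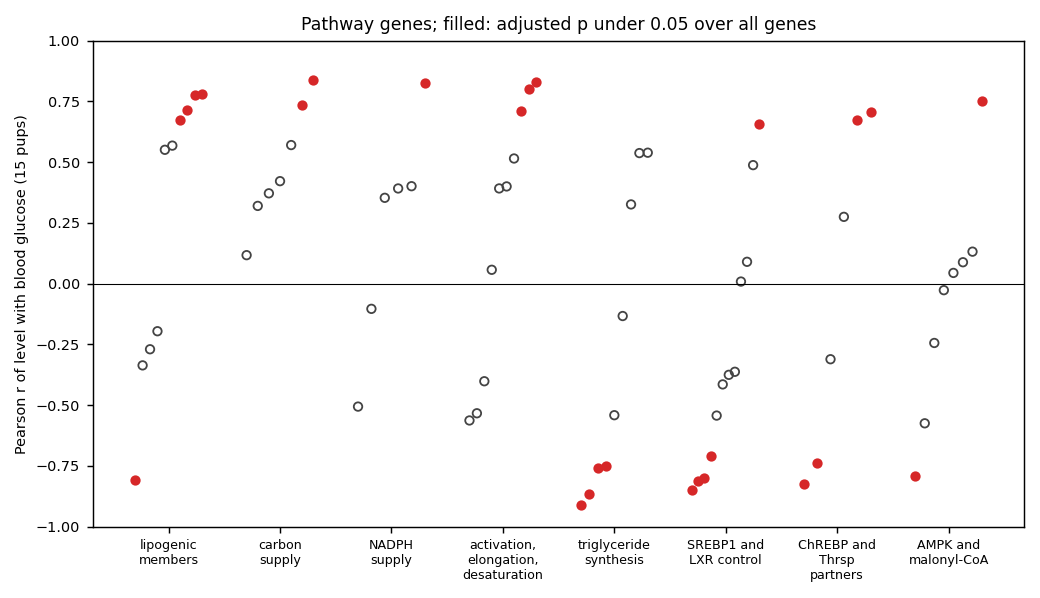
Pearson's r of level with blood glucose over 15 pups for the 10 members and the 58 pathway genes with a value on every array, by list; filled points passed the permutation test at an adjusted p under 0.05 over all genes. In triglyceride synthesis the 4 filled points are negative and in carbon supply the 2 filled points are positive; the members hold 4 positive filled points and 1 negative one, Acacb.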

How the data were processed

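Per the file headers, the deposited intensity values were made with Agilent Feature Extraction 10.10, gProcessedSignal being background-subtracted and detrended within the array. A second table of deposited log2 values, which the authors made with limma per the submitters' processing notes, served as an alternative. Control spots (3671 of 62976) and flagged outlier spots were left out, and log2 of gProcessedSignal was scaled by each array's 75th percentile, 663 to 912 units. Probes well above background on 3 or more arrays were kept (41151 of 55681); the brightest stood for its gene, and 27553 genes were tested. limma 3.58.1 (R 4.3.3) fitted 3 group means, or these and a slope on glucose, to all 15 libraries, with Benjamini-Hochberg adjustment over all genes; steps were tested on simulated data. Correlations used 100000 permutations, or all 5040 orders of 7 pups. The number of arrays limits the precision.

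Members and gene lists were chosen with earlier results of these data known. Named were all members, the pathway genes that passed a test, otherwise up to 3 per comparison with the smallest p, the gene most like each member, and Mirg. Marker lists covered hepatocytes, white and brown adipocytes, exocrine pancreas, erythroid cells, granulocytes, Kupffer cells and endothelium; mean levels over all libraries were 4.10 to 4.80 for erythroid, 5.52 to 6.14 for granulocyte, 3.28 to 3.95 for Kupffer cell, 2.07 to 2.94 for endothelial and -5.61 to -3.35 for brown adipocyte markers. Probe positions are those of the array design (mm9); their place in exons or UTRs was not analysed here. Alternatives covered background correction, normalization, the filter, the probe rule, slide, replicate number, libraries left out and, chosen after seeing the data, sex and the correlations without the 3 libraries highest in pancreas markers.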

Additional observations from a re-analysis of the deposited data

Results flagged for a closer look

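In wild-type pups the Fasn level of replicate 2, -1.77, stood apart from the other 4: its gap to the nearest pup was 0.777 of the group's range. In hypoglycaemic KO pups the Me1 level of replicate 2, 0.95, stood apart from the other 6, with a gap of 0.635 of the range; this is the library whose Mirg goes against its label. Of 20 groups of pups examined, these were the 2 in which a pup stood apart, and chance gives about 1 in 20.

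Acacb was above the wild-type mean in all 7 hypoglycaemic KO pups and below it in all 3 normoglycaemic KO pups. The difference between the KO groups was 1.66, and limma's test of that difference gave adjusted p = 0.105.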

How the results depend on the processing

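In the 3 comparisons of groups, 0 members passed under any of the 13 alternatives other than leaving out 1 library. Of all genes, 0.0% to 0.785% passed under these alternatives. Leaving out 1 library gave 0 to 2 members in hypoglycaemic KO against wild-type pups, 0 to 3 between the KO groups and 0 to 4 for the slope. The highest of these counts came where 2.72%, 3.44% and 3.56% of all genes passed. With 1 library left out, the correlation over all pups passed for 3 to 5 members, where 9.0% to 21.7% of all genes passed. The slope passed for 1 member with normexp correction and with the authors' deposited log2 values (Acaca in both; 1.24% and 1.08% of all genes), for 2 with probes well above background on all 15 arrays (Acaca, Acly; Thrsp has no value there; 2.5% of 21008 genes) and for 5 with no group terms (16.8% of all genes), where the median slope of the members was 0.089. Without the 2 pups farthest from the median glucose, the correlation over all pups passed for 2 members, against 5.03% of all genes. Without the 3 libraries highest in pancreas markers it passed for 0, against 0.709%. Within slide 1 or slide 2, which hold 8 and 7 pups, it passed for 0 members, against 0.0% of all genes. The cause of these shifts was not tested.

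Over all genes, hypoglycaemic KO against wild-type pups called 5 genes, 83 with normexp correction, 50 with the deposited log2 values, 91 with probes above background on all arrays, 0 without the 3 libraries highest in pancreas markers, and 750 without wild-type replicate 1 or 548 without hypoglycaemic KO replicate 4.

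Directions reversed where main values were near 0, such as 0.01 for Thrsp between the KO groups, and also where they were not. The main difference of normoglycaemic KO from wild-type pups was 0.56 for Thrsp and 0.26 for Me1. The main r in hypoglycaemic KO pups was 0.47 for Elovl6. Between the KO groups Thrsp was -0.018 with normexp correction, -0.70 within slide 1 and -0.24 with sex as a term, Me1 -0.18 within slide 1 and -0.079 with sex as a term, and Scd1 0.13 within slide 2. Normoglycaemic KO against wild-type pups gave -0.13 for Me1 and -0.41 for Thrsp within slide 2, -0.12 for Thrsp without the 3 libraries highest in pancreas markers and -0.038 for Mlxipl as the mean of its probes. The Thrsp slope was 0.0043 with normexp correction, 0.0034 with the deposited values and 0.0097 in the 10 KO libraries, and that of Me1 -0.040 with no group terms. In hypoglycaemic KO pups without the 2 farthest from the median glucose, r was -0.34 for Elovl6 and 0.00050 for Thrsp. Leaving out 1 library also turned signs. Normoglycaemic KO against wild type then ran from -0.042 to 0.42 for Fasn and -0.047 to 0.50 for Srebf1, and the KO groups differed by -0.053 to 0.26 for Me1 and -0.49 to 0.54 for Thrsp, whose slope was -0.20 to 0.090. Within hypoglycaemic KO pups r was -0.34 to 0.50 for Fasn, -0.96 to 0.14 for Acacb, -0.89 to 0.0049 for Scd1, -0.084 to 0.68 for Elovl6, -0.32 to 0.88 for Mlxipl and -0.66 to 0.014 for Thrsp.

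Replicate numbers were shared between groups. Of 11 same-numbered pairs, 6 correlated above 0.1 (range -0.17 to 0.32), and 6 of 13 libraries correlated best with their own number. No chance level was computed for these counts, so they do not decide whether same-numbered libraries are related. The main fits did not use the numbers as a pairing. With the replicate number as a block 0 members passed in the 3 comparisons and in the slope, against at most 0.00363% of all genes. The median slope of the members was then 0.26, and between the KO groups Me1 was -0.17 and Thrsp -0.10.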
